A study of Mus musculus and Oryctolagus cuniculus and Sus scrofa with 20 samples.

Results

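miR-465a, miR-465b and miR-465c are microRNA paralogues of the mouse X chromosome, and their mature products were followed through male germ cell development and in cultured spermatogonial stem cells (SSCs) that had lost a neighbouring microRNA, miR-741. The 6 mature names, a 5p and a 3p arm for each paralogue, form 4 entries, because the 3p arm of the 3 paralogues has the same sequence. They were taken from 1679 mature mouse miRNA names, joined into 1667 entries. Reads of 18 to 26 nt were counted for an entry when their first 18 bases were its own.

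The series holds 20 small RNA libraries, of which 10 are from the mouse and are used here; each stands for its own group, so no comparison has a replicate and no test was run. The stage series consists of wild type C57BL/6 males: cultured SSCs, pre-leptotene and leptotene spermatocytes of postnatal day 9, zygotene spermatocytes of day 13, pachytene spermatocytes and round spermatids (labelled round sperms) of day 25, and mature sperm, for which no age is given. The knockout experiment consists of SSCs of C57BL/6 x DBA2 F1 background, from a male of day 15 with transgenic actin-EGFP: a wild type control, a miR-741 knock-out made by TALEN and a miR-741 knock-out made by CRISPR. TALEN and CRISPR are nucleases that cut DNA at a chosen site. Each knockout line grew from a picked colony after nuclease plasmids were transfected, and a colony need not stem from 1 cell. Nothing says that the control was cloned or picked as a colony. SSCs were grown on mouse embryonic fibroblast feeder cells, whose own RNA can enter those libraries; the protocol gives the F1 background for SSCs, whereas the label of the SSC library of the stage series gives C57BL/6. Apart from the transfection and colony picking of the knockout lines, all groups were untreated, and whether a library pools animals is not stated.

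A miRNA is cut from a hairpin transcript first by Drosha and then by Dicer, which removes the loop and leaves a duplex of the 5p and 3p arms. One arm is loaded into an Argonaute protein and pairs with target RNAs mainly through its seed, bases 2 to 8. After cutting, terminal nucleotidyl transferases can add U or A to the 3′ end and exonucleases can shorten it. The miR-465 hairpins belong to the rapidly evolving X-linked miR-506 family, whose members are abundant in testis.

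The 5p arms are shown first because the 3 bases in capitals, at positions 13, 14 and 20 from the 5′ end, are those at which the paralogues differ; the bases at 13 and 14 told their reads apart (RefSeq, GRCm38.p6, minus strand; miR-465a-5p chrX:66839099-66839121, miR-465b-5p chrX:66835811-66835832, miR-465c-5p chrX:66826004-66826025).
miR-465a-5p: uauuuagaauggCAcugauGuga
miR-465b-5p: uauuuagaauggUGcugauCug
miR-465c-5p: uauuuagaauggCGcugauCug
The seed, auuuaga, lies before the first of these bases and is the same in the 3 paralogues. The shared 3p arm has another seed, printed here in capitals, and a second frequent form that began 1 base earlier and so had a shifted seed (chrX:66839063-66839084 and chrX:66839063-66839085).
miR-465a/b/c-3p: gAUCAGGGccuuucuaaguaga
3p starting 1 base earlier: uGAUCAGGgccuuucuaaguaga
No other miRNA entry with at least 100 reads in a mouse library had the seed of any of these forms. The hairpin of miR-465a shows how the arms, in capitals, enclose the loop (chrX:66839052-66839125).
Mir465: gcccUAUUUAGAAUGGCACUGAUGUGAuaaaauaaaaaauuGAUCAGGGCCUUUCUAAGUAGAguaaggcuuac
On the minus strand 5 hairpins carry these paralogues, Mir465c-1, Mir465b-1, Mir465c-2, Mir465b-2 and Mir465 in order of rising coordinate, within 13.2 kb (chrX:66825955-66839125). miR-465b and miR-465c thus each have a pair of hairpins with the same mature 5p sequence, and miR-465a has 1. The targeted Mir741 lies 29.1 kb from the nearest of them, on the same strand.

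Levels are given as a percentage of the reads assigned to any mature mouse miRNA. Those reads numbered 196752 (CRISPR line) to 468367 (control) in the knockout experiment. The pachytene library held 314112, the round spermatid library 491998 and each remaining stage library 3555236 to 6087617. They made up 1.38% of all pachytene reads and 2.09% of all round spermatid reads, against 13.7% for mature sperm and 25.3% to 46.2% for the rest. The intervals below are 95% intervals that cover counting error only, since reads without molecular identifiers are not independent molecules. Few reads were likely to be counted for the wrong paralogue. At position 20, which the 18 nt rule did not use, at least 99.1% of reads of 20 to 26 nt carried the base of their own paralogue, and the base of the other type, G for miR-465b-5p and miR-465c-5p and C for miR-465a-5p, was carried by at most 0.124% of miR-465a-5p, 0.0583% of miR-465b-5p and 0.482% (pre-leptotene) of miR-465c-5p reads. Position 20 cannot separate miR-465b-5p from miR-465c-5p, which share its base. For that pair, mismatch rates at other positions gave an estimate of exchanged reads. It was at most 0.0651% of miR-465c-5p reads (zygotene) and 0.0566% of miR-465b-5p reads (control SSCs). The markers matched the labels in part: miRNAs of late germ cells (7 entries of the miR-34b/c and miR-449 group) summed to 1.42% to 2.55% in the 3 latest stages and to at most 0.0406% elsewhere, and those of cultured stem cells (18 entries of the miR-290 and miR-302 group) to 0.351% to 0.535% in the 4 SSC libraries against at most 0.0627% elsewhere, although 7 or 8 of the 18 were at 0 in each SSC library. miR-200 and miR-203 group entries of epithelial cells summed to 1.67% in mature sperm and to at most 0.343% in the other libraries, and the part of other cells in the miR-465 values of mature sperm was not tested.

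All 4 entries were found in every mouse library, with 1631 or more reads each, and together they made up between 1.95% and 15.0% of miRNA reads. By stage the sum was 5.57% for SSCs, then 3.57%, 3.43%, 3.88% and 4.22% for pre-leptotene, leptotene, zygotene and pachytene spermatocytes, 2.78% for round spermatids and 1.95% for mature sperm. miR-465a-5p took 1.94% (95% interval 1.92% to 1.95%) of the SSC reads, then 1.96%, 1.80%, 1.80% and 1.36% (1.32% to 1.40%) of those of the spermatocytes in the same order, 0.826% (0.801% to 0.851%) of those of round spermatids and 0.786% (0.777% to 0.795%) of those of mature sperm. Its 4 earliest libraries lay within a narrow range and the last pair was lowest. The intervals of leptotene (1.79% to 1.82%) and zygotene (1.79% to 1.81%) overlapped, so their order is not resolved at this depth.

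miR-465b-5p and miR-465c-5p followed another course, with a low point in pre-leptotene and leptotene spermatocytes and a second high point in pachytene. From SSCs to mature sperm, in the order of stages above, miR-465b-5p took 1.26%, 0.527%, 0.536%, 0.827%, 1.09% (1.05% to 1.13%), 0.718% and 0.408%. miR-465c-5p took 1.44%, 0.746%, 0.764%, 0.909%, 1.25%, 0.892% and 0.515%. SSCs were highest, pachytene second and mature sperm lowest for both. The shared 3p arm had the same order at its ends, with 0.933% in SSCs, 0.519% in pachytene and 0.247% in mature sperm; the other 4 stages had 0.327% to 0.348%, and among these the intervals of zygotene, round spermatid and pre-leptotene overlapped. In bulk samples, fewer cells of a type and less miRNA per cell cannot be told apart.

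**Figure D1:**
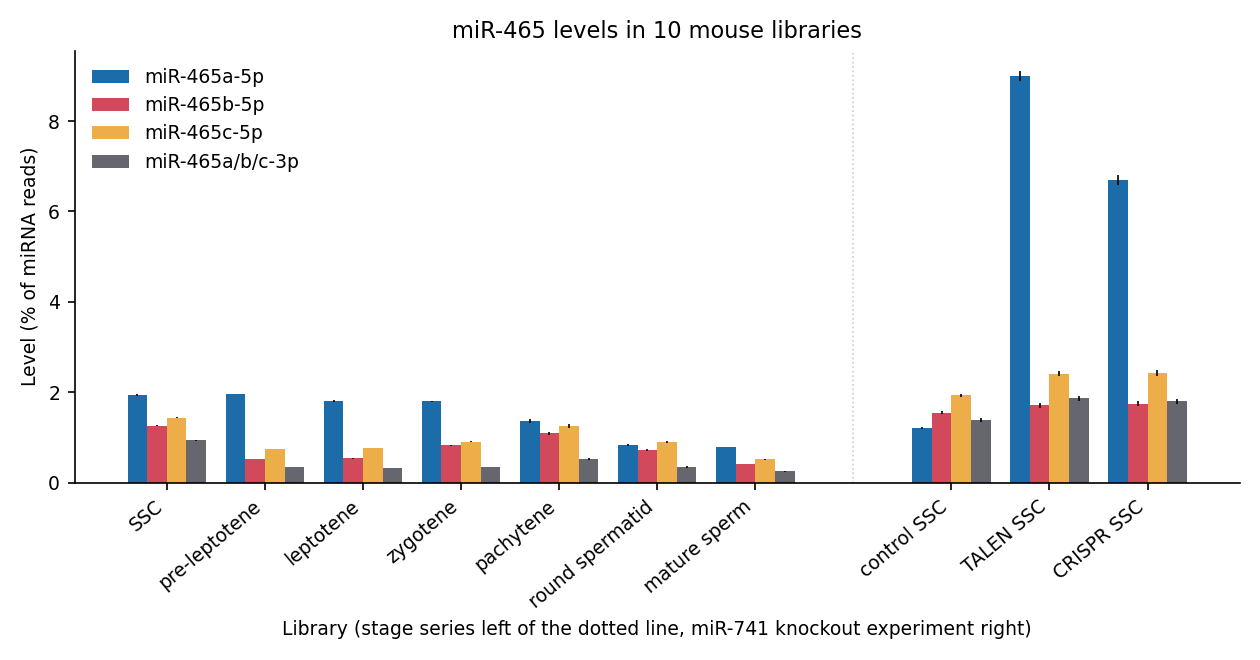
Level of each miR-465 entry, as a percentage of miRNA reads, in the 7 stage libraries and the 3 libraries of the knockout experiment. Bars are single libraries and error bars 95% Clopper-Pearson intervals; miR-465a-5p stands at 8.99% and 6.70% in the knockout lines and at 0.786% to 1.96% elsewhere.

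From SSC to pre-leptotene the paralogues differed in their change. On the log2 scale miR-465a-5p changed by 0.02 (0.00 to 0.03), miR-465b-5p by -1.26 (-1.28 to -1.24), miR-465c-5p by -0.95 (-0.97 to -0.93) and the 3p arm by -1.44 (-1.46 to -1.42). Each of these directions reversed under at least 1 of 7 alternatives of scaling and read matching, in which miR-465a-5p reached -0.06 and miR-465b-5p, miR-465c-5p and the 3p arm reached 0.42, 0.72 and 0.23. None of the 4 entries passed 4-fold at this step. Of 333 entries measured (with 100 reads or more in either library), 3.60% passed it upwards and 54.1% downwards, and the median was -2.30. The direction of the summed change depended on the scaling, being -0.64 per miRNA reads but 0.23 per all reads, 0.49 with edgeR's TMM, 1.03 with DESeq2 size factors and 0.46 per miRNA reads outside the miR-506 family. That family's other members went from 39.6% to 70.8% of miRNA reads at this step, chiefly through miR-741-3p (13.9% to 38.4%). Relative to the median of all entries, which scaling moves by the same amount as each entry (to -0.63 with DESeq2, for example), each member was higher in pre-leptotene, by 2.32 for miR-465a-5p, 1.05 for miR-465b-5p, 1.35 for miR-465c-5p and 0.86 for the 3p arm.

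Another measure separates the SSC library from the other 6 stage libraries. At base 2, the first base of the seed, an A read as G (A2G) made up 0.392% to 0.968% of the reads that otherwise matched a member in the libraries from pre-leptotene to mature sperm, and at most 0.0969% in SSCs and in the knockout experiment. This was not particular to miR-465: over all other entries with A at that base and at least 1000 reads, the median was 0.368% to 0.457% in the first set of libraries and 0.0101% to 0.0218% in the second. Nor was it limited to G. For the members an A read as U at base 2 made up 0.0608% to 0.325% in the first set and at most 0.0352% in the second. Whether the way these libraries were made bears on the step from SSC to pre-leptotene was not tested. Feeder or stromal miRNAs (4 entries of the miR-199 and miR-214 group, all detected in both) also went from 1.93% to 0.145% at this step, and their part in it was not tested.

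At the later steps no entry passed 4-fold either, and the summed level changed by -0.06 to leptotene, 0.18 to zygotene, 0.12 to pachytene, -0.60 to round spermatid and -0.51 to mature sperm, of which the zygotene and pachytene directions reversed under all 4 other scalings and that of mature sperm under 2 (2.21 per all reads and 0.10 with DESeq2 size factors). The shares of measured entries past 4-fold upwards and downwards were 0.472% and 0 at leptotene, 11.3% and 0 at zygotene, 9.31% and 13.4% at pachytene, 5.43% and 13.2% at round spermatid, and 22.5% and 20.1% at mature sperm. From zygotene to pachytene miR-465a-5p changed by -0.40 (-0.45 to -0.36), while miR-465b-5p, miR-465c-5p and the 3p arm changed by 0.40, 0.46 and 0.58. Only the sign for miR-465a-5p at that step was the same under all 7 alternatives, since the other 3 entries were lower per all reads (-4.00 to -3.82) and miR-465b-5p and miR-465c-5p also changed sign under 1 other alternative. From round spermatid to mature sperm miR-465a-5p changed by -0.07 (-0.12 to -0.02) and miR-465b-5p and miR-465c-5p by -0.82 and -0.79, and each of these directions reversed in at least 1 scaling. Sizes in those steps thus depend on what the reads are divided by, whereas the ratios within a library, which follow, do not.

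Among the 3 paralogues' 5p reads, miR-465a-5p had the largest share at every stage but round spermatids. Its share was 41.7% (41.5% to 41.9%) for SSCs, then 60.6%, 58.1%, 50.9% and 36.7% (35.9% to 37.6%) for the spermatocytes from pre-leptotene to pachytene, 33.9% (33.1% to 34.8%) for round spermatids and 46.0% (45.6% to 46.4%) for mature sperm. It was highest in pre-leptotene, lower at each stage from there to round spermatids, and higher again in sperm. miR-465c-5p outnumbered miR-465b-5p in every mouse library, with 52.4% (zygotene) to 58.8% (leptotene) of the reads of that pair. The order a, c, b held in 8 of the 10 mouse libraries; in round spermatids it was c, a, b with 36.6%, 33.9% and 29.5%, and in control SSCs c, b, a with 41.1%, 33.1% and 25.8%. When reads had to hold the whole mature sequence, or to lie exactly within the hairpin, miR-465a-5p came first in round spermatids too and second in control SSCs. Shares moved by up to 7.90 and 22.6 percentage points under these rules.

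**Figure D2:**
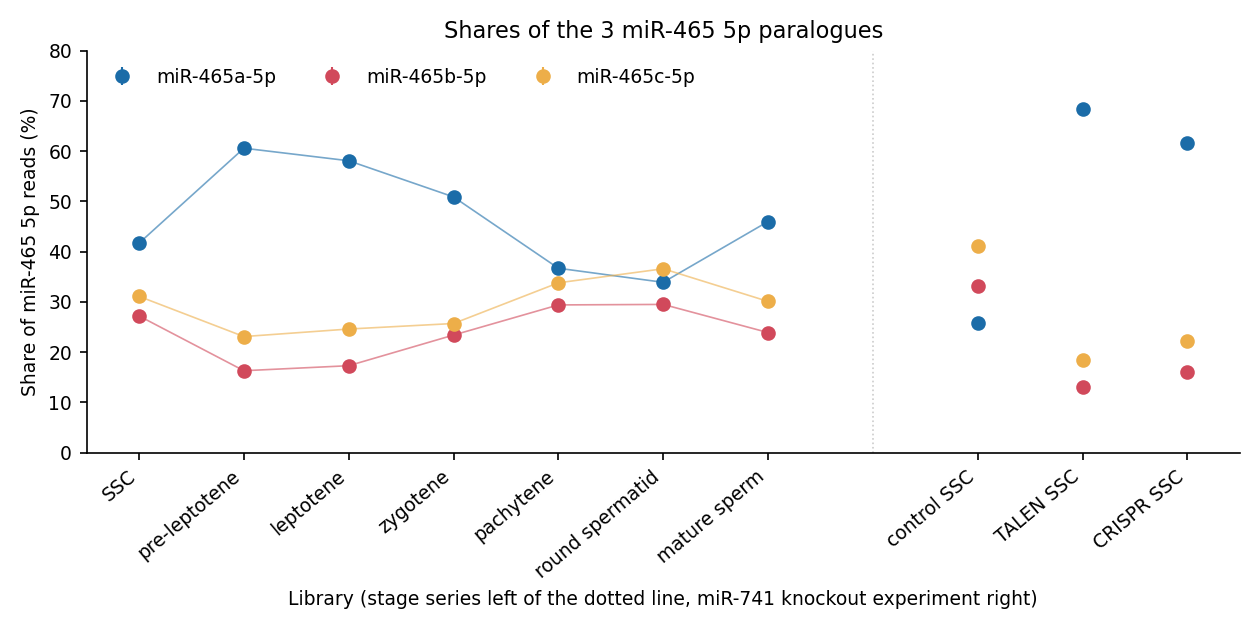
Share of each 5p paralogue among all miR-465 5p reads of a library, in percent; points are single libraries, error bars (mostly smaller than the points) are 95% Clopper-Pearson intervals and lines join the stages. miR-465a-5p runs from 60.6% in pre-leptotene to 33.9% in round spermatids, and from 25.8% in control SSCs to 68.5% and 61.6% in the knockout lines.

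The 5p arm outnumbered the 3p arm in all 10 mouse libraries. It took 83.3% of the reads of both arms in SSCs, 90.4% to 91.0% from pre-leptotene to zygotene, 87.4% to 87.7% from pachytene to mature sperm, and 77.3% (76.8% to 77.7%), 87.5% and 85.8% in the control, TALEN and CRISPR SSCs. These shares count 3p reads of the annotated start only. The 3p arm cannot be divided among the paralogues, so an arm ratio for a single paralogue is not given.

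The early-starting 3p form was frequent in every library and least so in mature sperm. It made up 41.9%, 41.9%, 42.6%, 44.5%, 45.3% and 42.3% of 3p reads of any start from SSCs to round spermatids, and 40.7%, 37.1% and 39.8% in the control, TALEN and CRISPR SSCs. In mature sperm the share was 14.3% (13.6% to 15.0%). If these reads are counted as 3p, the 5p arm still outnumbered the 3p arm in all 10 libraries. Each 5p share given above is then lower, and the least lowered is that of mature sperm. The likeness of the 5p shares from pachytene to mature sperm therefore holds for the annotated 3p start only. The 5p entries had fewer shifted starts: no other single start exceeded the 0.406% of miR-465a-5p reads that began 2 bases later in mature sperm.

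The paralogues also differed at their 3′ ends. Reads of miR-465a-5p were mostly 23 nt, the annotated length, in 8 of the 10 libraries, and 24 nt in the knockout lines. For miR-465b-5p and miR-465c-5p, annotated at 22 nt, 23 nt was the most frequent length in 9 and in 10 libraries, with 34.7% to 68.3% and 35.2% to 57.1% of reads; the exception was miR-465b-5p in SSCs with 21 nt (31.7%). The 23rd base of the 23 nt reads was mostly a U that none of their hairpins encodes, where the next base is A. The most frequent read with an added base is shown for each entry in mature sperm, with that base in capitals.
miR-465b-5p with U: uauuuagaauggugcugaucugU
miR-465c-5p with U: uauuuagaauggcgcugaucugU
miR-465a/b/c-3p with A: gaucagggccuuucuaaguagaA
miR-465a-5p with A: uauuuagaauggcacugaugugaA

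Reads whose added bases were all U made up 16.7% (16.4% to 17.0%) of miR-465b-5p in SSCs, then 50.0%, 50.4%, 44.9% and 54.9% from pre-leptotene to pachytene, 60.4% for round spermatids and 68.8% (68.0% to 69.5%) for mature sperm. For miR-465c-5p the values were 23.6%, 56.6%, 55.2%, 45.9%, 53.7%, 58.4% and 59.5%. The SSC library was lowest for both and the values from pre-leptotene on were at least 44.9%. In the knockout experiment, miR-465b-5p had 23.8%, 27.8% and 27.6% and miR-465c-5p 33.0%, 29.9% and 32.3% in control, TALEN and CRISPR SSCs, so that the 4 SSC libraries lay below the other 6. The split was not particular to miR-465. Over all entries with at least 1000 reads the median was 1.55% to 2.29% in the 4 SSC libraries and 2.59% to 5.80% in the other 6. The same 2 sets of libraries differed in A2G, and whether the way they were made bears on added U was not tested. The single form ending at base 22 plus U went from 16.0% of miR-465b-5p in SSCs to 63.2% in mature sperm, and its ratio to the templated 23 nt form from 1.40 to 16.2. miR-465a-5p, whose annotated last base is A where theirs is G, had 0.529% to 1.99% of such reads, and the 3p arm 1.69% to 6.52%.

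miR-465b-5p and miR-465c-5p were among the first 4 entries by added U in 9 of the 10 mouse libraries, all but the SSCs of the stage series. In mature sperm miR-465b-5p ranked 2 and miR-465c-5p 4 among 101 entries with at least 1000 reads, whose median was 5.80%; in pachytene spermatocytes they ranked 1 and 2 of 44 with a median of 2.59%, and in SSCs 18 and 6 of 165 with a median of 2.21%. An added U on the 23 nt form of miR-465a-5p cannot be told apart from the templated 24 nt form, whose last base is also U, and an added A on a 22 nt read of any 5p entry cannot be told apart from the templated base 23.

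Added A was most frequent in the last stages on the 3p arm and miR-465a-5p, the entries in which little added U could be detected. The 3p arm had 0.978% of such reads in SSCs, then 4.80%, 4.89%, 3.81% and 6.25% (5.13% to 7.54%) from pre-leptotene to pachytene, 19.0% (17.1% to 20.9%) for round spermatids and 40.8% (39.8% to 41.9%) for mature sperm. In the same order miR-465a-5p had 1.66%, 2.70%, 2.96%, 2.81%, 4.03%, 11.5% and 13.6%. Round spermatids and mature sperm were highest for both, with intervals apart from those of every earlier stage. In mature sperm 28.3% of 3p reads ended in 1 added A and 12.4% in 2, and the arm ranked 2 of 101 entries, with miR-465a-5p 10th; the median entry had 2.34%. miR-465b-5p and miR-465c-5p had little added A at any stage, with their highest shares, 1.66% and 2.20%, in SSCs and 0.200% and 0.628% in mature sperm.

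**Figure D3:**
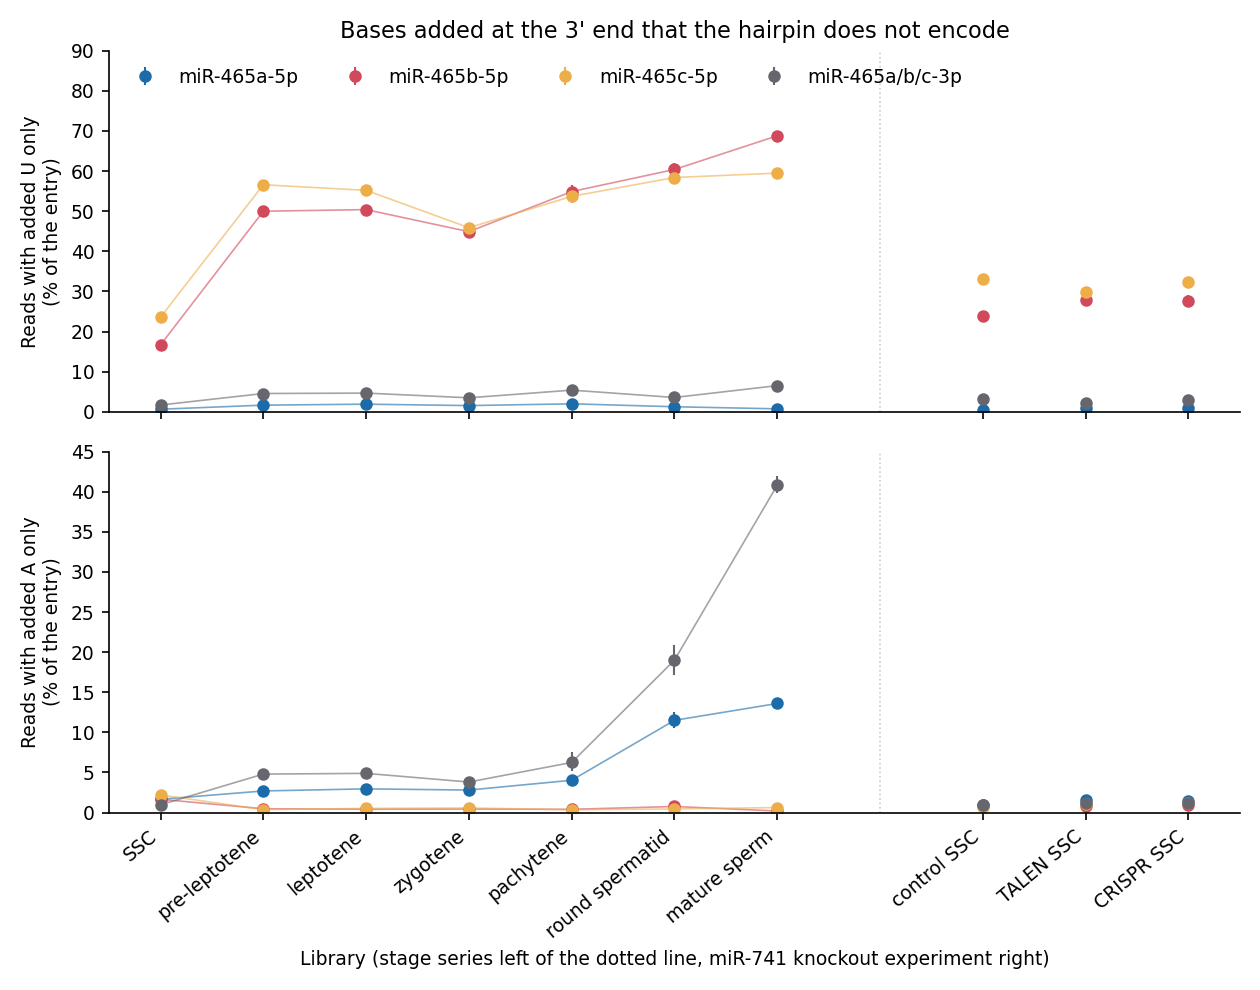
Reads of each miR-465 entry that end in added U alone (upper panel) or added A alone (lower panel), in percent of the entry's reads, by library. Points are single libraries with 95% Clopper-Pearson intervals; miR-465b-5p and miR-465c-5p reach 68.8% and 59.5% added U, and the 3p arm 40.8% added A, in mature sperm.

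Reads longer than 26 nt were chiefly of miR-465a-5p among the 5p entries: 10141 in the 10 mouse libraries together, beside 375 of miR-465b-5p and 629 of miR-465c-5p. Most of those of miR-465a-5p held a 5p arm that still carried its loop. In SSCs 184 of 252 long reads of miR-465b-5p and 115 of 246 of miR-465c-5p matched the hairpin throughout. In pre-leptotene 3 of 36 and 0 of 102 did, beside 819 of 1221 for miR-465a-5p. Reads of 27 to 41 nt beginning with miR-465a-5p numbered 6952 in SSCs, or 6.54% (6.39% to 6.69%) of its reads of 18 to 41 nt. The most frequent length was 37 nt, and 5524 of the 6059 that matched the hairpin throughout ended just before the annotated first base of the 3p arm. That form is printed with its loop part in capitals (chrX:66839085-66839121).
miR-465a-5p with loop: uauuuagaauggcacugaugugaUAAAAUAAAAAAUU
In the stages after SSCs the share was 1.01%, 0.832%, 0.669%, 0.373% (16 reads), 0.246% (10 reads) and, in mature sperm, 0 of 27934 reads, which allows up to 0.0132%. It was 5.67% in control SSCs, 0.835% in the TALEN and 1.07% in the CRISPR line. By this share miR-465a-5p ranked 18 of 320 entries with at least 100 reads in SSCs (median 0.0473%) and 7 of 146 in control SSCs (median 0.0195%), so other miRNAs had higher shares in both. miR-465b-5p and miR-465c-5p, whose 3p arms begin 37 and 39 bases after the 5p start against 37 in miR-465a, had 0.388% and 0.332% in SSCs.

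The knockout comparison asks what differs among the miRNAs of SSCs without miR-741, with both lines set against the same control library. The targeted miRNA was nearly gone: miR-741-3p had 80096 reads in control SSCs, 3 in the TALEN and 5 in the CRISPR line, and miR-741-5p 282, 0 and 0. Of the miR-465 entries miR-465a-5p alone passed the threshold of a 2-fold change the same way in both lines, at 1.21% (1.18% to 1.24%) of miRNA reads in control SSCs, 8.99% (8.88% to 9.10%) in the TALEN and 6.70% (6.59% to 6.81%) in the CRISPR line. The reads behind these shares were 5674, 23034 and 13188. On the log2 scale it was higher by 2.89 (2.85 to 2.93) and 2.47 (2.42 to 2.51). Among 150 measured entries 9.33% passed that threshold upwards and 9.33% downwards, and miR-465a-5p ranked first by the smaller of its changes in the 2 lines, before miR-378c (2.46 and 2.32). It was the most abundant entry of the TALEN library and the second of the CRISPR library, and ranked 20 in the control.

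The paralogues and the 3p arm differed less from the control. miR-465b-5p took 1.55%, 1.71% and 1.75% in control, TALEN and CRISPR SSCs, miR-465c-5p 1.93%, 2.41% and 2.42%, and the 3p arm 1.38%, 1.87% and 1.80%. For each of them the intervals of the TALEN and CRISPR lines overlapped. Their log2 changes, 0.14 and 0.17, 0.32 and 0.32, and 0.43 and 0.38, did not reach 2-fold and turned to between -0.23 and 0.07 with edgeR's TMM, under which the median entry moved from 0.03 to -0.34 and from 0.15 to -0.26. miR-465a-5p was higher by 2.53 and 2.06 under that scaling and by 2.06 to 2.94 over all alternatives. The ratio of miR-465a-5p to miR-465b-5p and miR-465c-5p together, which no scaling alters, was 0.348 in the control, 2.18 in the TALEN and 1.61 in the CRISPR line, against 0.513 to 1.54 in the stage libraries. The 4 entries together took 6.08%, 15.0% and 12.7%, a log2 difference of 1.30 (1.28 to 1.32) and 1.06 (1.04 to 1.08).

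**Figure D4:**
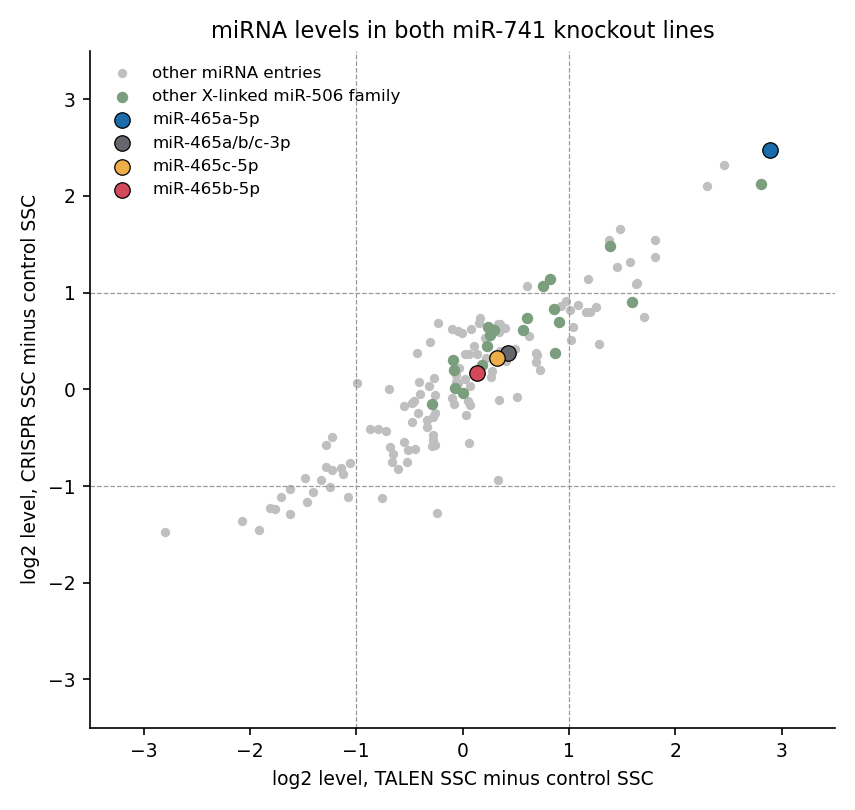
Log2 change of 148 miRNA entries in the TALEN (x axis) and the CRISPR line (y axis) against control SSCs, without the 2 miR-741 entries; dashed lines mark 2-fold and each point is 1 entry. Both axes share the control library; miR-465a-5p lies at 2.89 and 2.47, and the other miR-465 entries between 0.14 and 0.43.

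Not all forms of miR-465a-5p were higher to the same degree. The 24 nt form, whose last base matches the hairpin but could also be an added U, went from 1556 reads to 14609 and 8250, a log2 change of 4.10 (4.03 to 4.18) and 3.66 (3.58 to 3.74). The 23 nt form went from 3413 to 6732 and 3858 reads, by 1.85 (1.79 to 1.91) and 1.43 (1.36 to 1.49). The 20 nt form, with 200, 124 and 97 reads, differed by 0.18 (-0.16 to 0.51) and 0.21 (-0.16 to 0.56), intervals that include 0. The 23 nt and 24 nt sequences differ by the last base only.
miR-465a-5p, 23 nt: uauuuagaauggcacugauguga
miR-465a-5p, 24 nt: uauuuagaauggcacugaugugau
Templated reads of 27 to 41 nt, with 315, 168 and 120 reads, differed by -0.04 (-0.32 to 0.24) and -0.14 (-0.46 to 0.17) on the same scale. Among the other forms, the 21 nt form differed by 1.18 and 1.16, the 22 nt form by 1.55 and 1.35 and reads with added bases by 3.05 and 2.74. The 25 nt form, with 19, 285 and 143 reads, differed by 4.78 and 4.16. The 18 nt form, with 36, 17 and 26 reads, differed by -0.21 and 0.78. The 19 nt form, with 16, 5 and 4 reads, differed by -0.81 and -0.75. The 24 nt form outnumbered the 23 nt form in the knockout lines alone: their ratio was 2.17 and 2.14 there, 0.456 in control SSCs, 0.349 in the SSCs of the stage series and 0.181 to 0.263 from pre-leptotene to mature sperm.

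**Figure D5:**
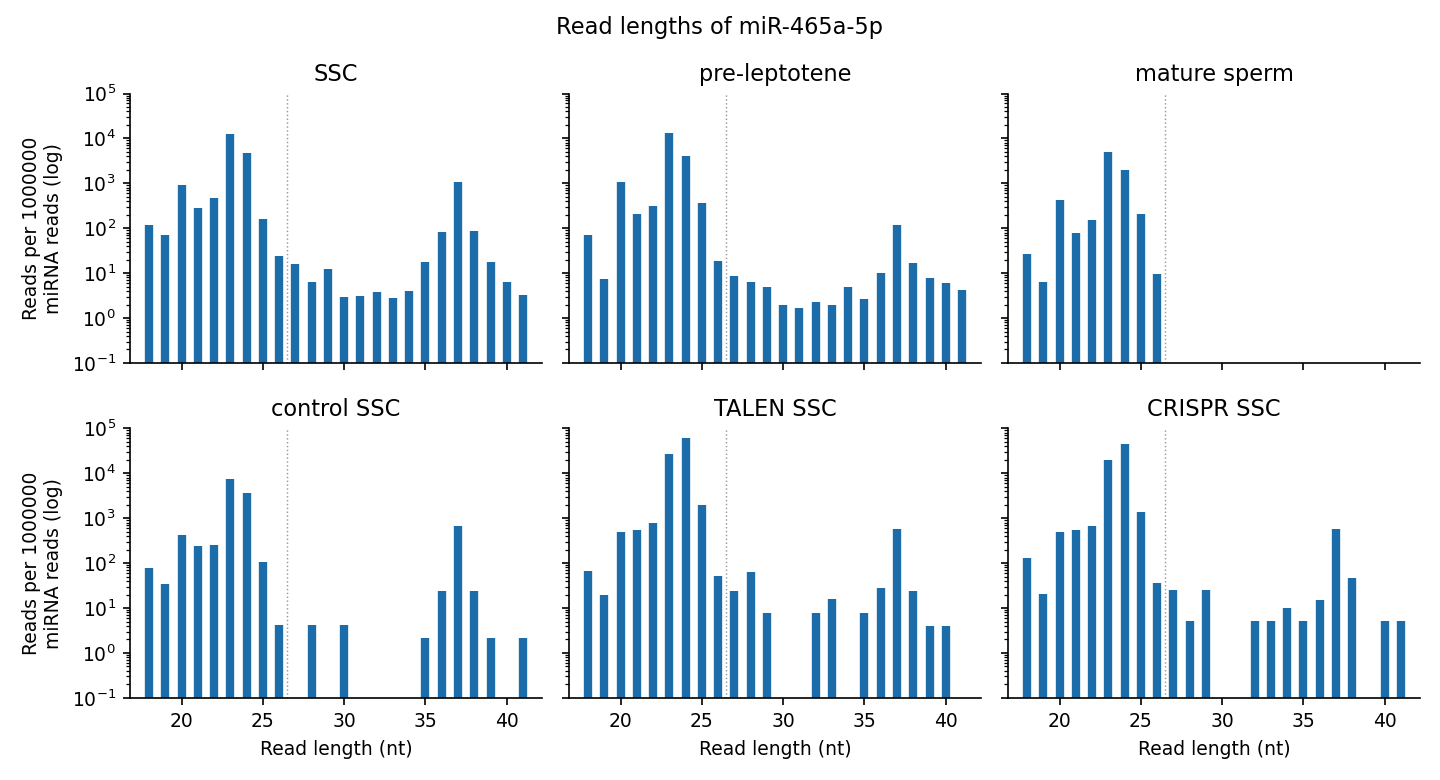
Reads of miR-465a-5p by length from 18 to 41 nt in 6 libraries, per 1000000 miRNA reads on a log axis; the dotted line separates the 18 to 26 nt reads counted as the mature miRNA from longer ones. The peak at 37 nt is present in SSCs and at 0 in mature sperm, and the 24 nt reads exceed the 23 nt reads in the knockout lines only.

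The mean length of miR-465a-5p reads was 23.11 nt in control SSCs, 23.67 nt in the TALEN and 23.64 nt in the CRISPR line. Ranked by the smaller of the 2 shifts in the same direction, 0.56 and 0.53 nt, it came first of 111 entries, whose median shifts were -0.01 and 0.00 nt; miR-298-5p was next with 0.44 and 0.75 nt. miR-465c-5p ranked 41, miR-465b-5p 53 and the 3p arm 69.

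Other members of the X-linked miR-506 family were measured at the same time. Of 34 listed entries 22 were measured and 4 passed 2-fold in both lines: miR-463-3p (2.81 and 2.12) and miR-883a-5p (1.39 and 1.48) were higher, and the targeted miR-741 arms lower. Over all 150 measured entries 9.33% were higher and 9.33% lower in both lines, so 2 higher of 22 is near that share. The family's median change was 0.28 and 0.58 beside 0.03 and 0.15 over all entries. miR-465 made up 13.0% of the family's reads in control SSCs and 34.1% and 30.1% in the knockout lines; with the miR-741 arms left out of the family the control share was 20.5%. In the knockout lines the most abundant other family entry was miR-871-3p with 7.16% and 7.88% of miRNA reads. Feeder or stromal miRNAs, 4 entries that were all detected, summed to 1.64% in control SSCs, 0.565% in the TALEN and 0.751% in the CRISPR line, led by miR-199a-3p/miR-199b-3p; epithelial ones summed to 0.117%, 0.297% and 0.213%, and blood cell ones, of which 4, 2 and 2 of 8 entries were detected, to 0.0111%, 0.0406% and 0.0554%. Cultured stem cell miRNAs summed to 0.351%, 0.436% and 0.534%. Their part in the miR-465 values was not tested, and miR-741 loss, the picked colony and the library cannot be told apart within a line.

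The SSCs of the stage series and the control SSCs, both wild type but of different labelled background, were also compared. The summed level was 5.57% in the former and 6.08% in the latter, a log2 difference of -0.13 (-0.14 to -0.11) that became 0.19 with edgeR's TMM. miR-465a-5p was higher in the former by 0.68 (0.64 to 0.72). The log2 differences of miR-465b-5p, miR-465c-5p and the 3p arm were -0.30, -0.42 and -0.57, larger in size per miRNA reads than those between either knockout line and the control, of which only that of miR-465b-5p reversed under an alternative (to 0.02). None passed 2-fold, where 20.3% of 320 entries did so upwards and 3.12% downwards. The shares of miR-465a-5p among 5p reads, 41.7% and 25.8% (25.2% to 26.4%), differed beyond counting error.

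Over the 7 stage libraries, the entries whose log2 levels were most alike to the summed miR-465 level among 358 were miR-106b-5p (Pearson's r = 0.989), miR-32-3p (0.977), miR-471-5p (0.969), miR-152-5p (0.964) and miR-25-5p (0.959), against a median of 0.458. Between members, r was 0.978 for miR-465b-5p with miR-465c-5p, 0.887 and 0.919 for these with the 3p arm, and 0.361 to 0.468 for miR-465a-5p with each of the others. These values describe 7 points that share depth and scaling with every entry compared.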

How the data were processed

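Small RNA of total RNA was sequenced on an Illumina HiSeq, per the labels' protocols. For each library the authors deposited distinct read sequences with their counts, not normalised; trimming is not given in the sources used here, and Bowtie and the build GRCm38 are named without roles in the submitters' processing notes. Reads of 18 to 26 nt were assigned by their first 18 nt to the mature mouse miRNAs of RefSeq (GRCm38.p6), in which all 6 members had a sequence, and their counts were scaled per 1000000 assigned reads. A 3′ end was called added where it left the hairpin sequence. A change was counted at 4-fold between consecutive stages and at 2-fold the same way in both knockout lines, among entries with at least 100 reads in 1 library compared; a count of 0 was set to 3. Shares carry 95% Clopper-Pearson intervals and log2 ratios exact conditional binomial ones. Named are all members, miR-741, family entries past the threshold, entries sharing a seed and the 5 most alike over the stages. Marker lists were those of late germ cells, cultured stem cells, Sertoli, feeder or stromal, blood, epithelial and muscle cells. The miR-202 entries of Sertoli or gonadal somatic cells summed to at most 0.339% (zygotene) and the miR-206 entries of muscle to at most 0.00780%. Alternatives changed the scaling (all reads, edgeR 4.0.16 TMM, DESeq2 1.42.0 size factors, reads outside the miR-506 family), the matching and the read length. Scripts (Python 3.11.15, SciPy 1.17.1, R 4.3.3) were tested on simulated data. The members and lists were chosen with earlier results of these data known.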

Additional observations from a re-analysis of the deposited data

Results flagged for a closer look

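Reads longer than the 26 nt counted as mature miRNAs began with a member in the 10 mouse libraries together 10141 times for miR-465a-5p, 375 times for miR-465b-5p, 629 times for miR-465c-5p and 986 times for the shared 3p arm (27 to 41 nt), above the limit that a count of 0 allows. In no library did a long 3p read match the hairpin sequence throughout, which ends shortly after that arm. A further 90270 reads began 1 base before the annotated 3p start and lay outside the counting rule. In the 8 rabbit libraries 1281 reads matched a mouse miR-465 entry, with 133 to 213 in each, and 61 did in the pig library, while the rat library had 0. A single entry had 17 to 80 of these reads in a rabbit library and 8 to 19 in the pig library. Whether they came from the rabbit and pig samples themselves was not tested.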

How the results depend on the processing

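No paired analysis was possible because every group has 1 library and no replicate numbers. With reads of pre-leptotene set against SSC, the summed log2 change of -0.64 became 0.23 per all reads, 0.49 with TMM, 1.03 with DESeq2 size factors, 0.46 per miRNA reads outside the family, -0.59 with whole mature matching, -0.84 with exact hairpin matching, -0.66 with reads of 20 to 24 nt and -0.70 with early 3p starts counted, an alternative chosen after seeing the data. In the same order up to exact hairpin matching, leptotene gave -0.29, -0.10, -0.01, -0.04, -0.07 and -0.08. Zygotene gave -0.26, -0.33, -0.49, -0.45, 0.30 and 0.23. Pachytene gave -4.27, -0.27, -0.02, -0.37, 0.08, -0.09 and, with early starts, 0.16. Round spermatid gave 0.00, -0.19, -0.24, -0.95, -0.34 and -0.72. Mature sperm gave 2.21, 0.00, 0.10, -0.91, 0.51, -0.59 and, with early starts, -0.61. SSC against control gave -0.48, 0.19, -0.43, -0.17, -0.19, -0.02 and, with early starts, -0.17. The TALEN line against control gave 1.21, 0.94, 1.22, 1.22, 1.40, 1.42 and (early starts) 1.19, and the CRISPR line 1.09, 0.65, 0.79, 0.94, 1.18, 1.15 and (early starts) 0.98, so the summed level was higher in both lines under every alternative run. The cause of these moves was not tested.

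Entries past 4-fold lower numbered 1 (miR-465b-5p) from SSC to pre-leptotene with exact hairpin matching and 4 from zygotene to pachytene per all reads, and 2 (miR-465a-5p and the 3p arm) were higher from round spermatid to mature sperm per all reads. All other counts of entries past the threshold were 0 as before. Per all reads the median of all measured entries was itself -4.52 from zygotene to pachytene and 2.53 from round spermatid to mature sperm. From SSC to pre-leptotene 54.1% of 333 entries passed 4-fold downwards with the main counts. The shares of all entries past 4-fold under these alternatives were not counted. The count of 1 entry higher in both knockout lines, miR-465a-5p, was the same under each alternative run. The 5p arm led in 10 libraries under all 4 alternatives, the order of paralogues held in 8 libraries with reads of 20 to 24 nt and in 9 with either stricter matching, and exact hairpin matching drops reads with added bases by construction. Among summed values and counts under alternatives, 149 stayed within the counting error or 1.5 times the main count and 64 did not; among values of single entries and shares, 90 stayed and 252 did not; depth limits the pachytene, round spermatid and knockout libraries most, with as few as 1631 reads for an entry.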

Other observations

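An A read as G at base 14 of miR-465a-5p (A14G, counted from the 5′ end, in reads that carried the G of miR-465a-5p at base 20) made up 0.148% to 0.282% of reads in the 6 libraries from pre-leptotene to mature sperm and 0.00761% to 0.0889% in the 4 SSC libraries. With G at base 14 these reads begin with the 18 bases of miR-465c-5p, for which they were counted. They are the same reads as those of miR-465c-5p with G at position 20 given above, 218 in pre-leptotene. Each differs by 1 base from either paralogue, so a changed miR-465a-5p and a changed miR-465c-5p cannot be told apart. The same change at the other A positions from base 3 to base 18 reached at most 0.0626% in any mouse library. At base 2 of miR-465a-5p it was more frequent than at base 14, with 0.392% to 0.672% in the same 6 libraries. There an A read as U made up a further 0.132% to 0.325%. In the pachytene, round spermatid, control, TALEN and CRISPR libraries the A14G counts were 12, 6, 5, 11 and 1 reads. The interval of control SSCs (0.0289% to 0.207%) overlapped that of each of the 6 libraries, so that difference is not resolved.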
